A study of Mus musculus with 6 samples.

Results

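Plasminogen and tissue factor pathway genes were examined in AML12 cells, a mouse hepatocyte line, under normoxia and after hypoxia-reoxygenation (H/R). The genes were taken by name as 9 listed symbols: the plasminogen activators Plat and Plau, the urokinase receptor Plaur, the protease inhibitor Serpine2, the coagulation initiator F3, its inhibitor Tfpi, the protein C pathway receptors Procr and Thbd, and the matricellular protein Thbs1. A row was found for 8 of the 9 among 25330 genes, and Thbd was not analysed here. The Control group held 3 libraries of wild-type AML12 cells kept at 21% oxygen in DMEM/F12 with serum, insulin-transferrin-selenium supplement and dexamethasone. The H/R group, labelled H6R2, held 3 libraries of the same line given serum-free, glucose-free medium and 1% oxygen for 6 h and then reoxygenated for 2 h. Medium and oxygen changed together between these groups, so their parts in any difference cannot be told apart. The line is a model of hepatocytes alone, with no vessel wall, platelets or flowing blood.

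Plasminogen is made in the liver and is cut into plasmin, the protease that dissolves fibrin, by tissue-type activator (Plat) and urokinase (Plau). Urokinase acts at the cell surface on its receptor (Plaur), and serpins such as Serpine2 block the activators. Clotting begins when tissue factor (F3) meets factor VII, which Tfpi restrains, and thrombin bound to Thbd activates protein C held on Procr. Thrombospondin 1 (Thbs1) binds matrix, plasminogen and the receptor CD47, and releases transforming growth factor beta from its latent form.

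Each library held between 20438746 and 21854790 counts assigned to genes, and 14020 genes were tested. Hepatocyte markers were present: 9 of 10 held at least 10 counts in every library, and their summed level was 2504 to 2714 RPKM in Control and 3738 to 3767 RPKM in H/R, most of it from Krt8 and Krt18. RPKM is reads per kilobase of exon scaled to the library's total count, the measure on which levels of different genes are compared below. Albumin was low, with 542, 132 and 209 counts in Control and 43, 31 and 37 in H/R. Of 9 endothelial markers, the other cells known for several of these genes, 6 held at most 3 counts in every library, including Pecam1, Kdr and Cdh5. The summed level of the 9 was 0.563 to 0.762 RPKM in Control and 0.330 to 0.525 RPKM in H/R. Among them Eng held 57, 43 and 51 counts in Control and 31, 24 and 39 in H/R, and no other endothelial marker passed 4 counts. Of 7 macrophage and blood markers, 3 (Ptprc, Adgre1 and Clec4f) were at the floor of at most 3 counts in every library. The 7 summed to 23.7 to 25.9 RPKM in Control and 16.95 to 18.65 RPKM in H/R, mostly Cd14. The 4 platelet markers summed to 0.882 to 1.05 RPKM in Control and 0.706 to 1.34 RPKM in H/R. The 8 stellate and fibroblast markers summed to 0.212 to 0.278 RPKM in Control and 0.159 to 0.224 RPKM in H/R, and 5 of them were at the floor. Control replicate 1 stood apart from the other Control libraries, with a chi-square per degree of freedom of 14.3 and 15.0 against replicates 2 and 3, which gave 5.24 against each other. Calls are therefore also given without it. The part of these marker levels in the results was not tested, and in bulk RNA fewer cells of a type cannot be told apart from less RNA per cell.

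In the H/R libraries F3, Thbs1, Plat and Plaur rose about 4- to 6-fold, Plau and Serpine2 rose by less than 2-fold, and for Tfpi and Procr no difference was detected. A gene was called when edgeR's quasi-likelihood test gave a Benjamini-Hochberg adjusted p under 0.05 over all 14020 genes and the fold change was at least 2. By this rule 4 of the 8 genes were called, all higher in H/R, where 8.52% of all genes tested were called and 4.25% were called higher. By the adjusted p alone 6 of the 8 passed, all of them higher and none lower, where 62.8% of all genes passed and 31% passed as higher. The 3 H/R libraries lay wholly above the 3 Control libraries for 5 of the 8 genes, as they did for 32.5% of all genes tested. The median log2 fold change was 1.32 over the 8 genes and -0.01 over all genes tested. Without Control replicate 1 the same 4 genes were called, with log2 fold changes of 2.49 for F3, 2.37 for Thbs1, 2.25 for Plat and 1.98 for Plaur.

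**Figure D1:**
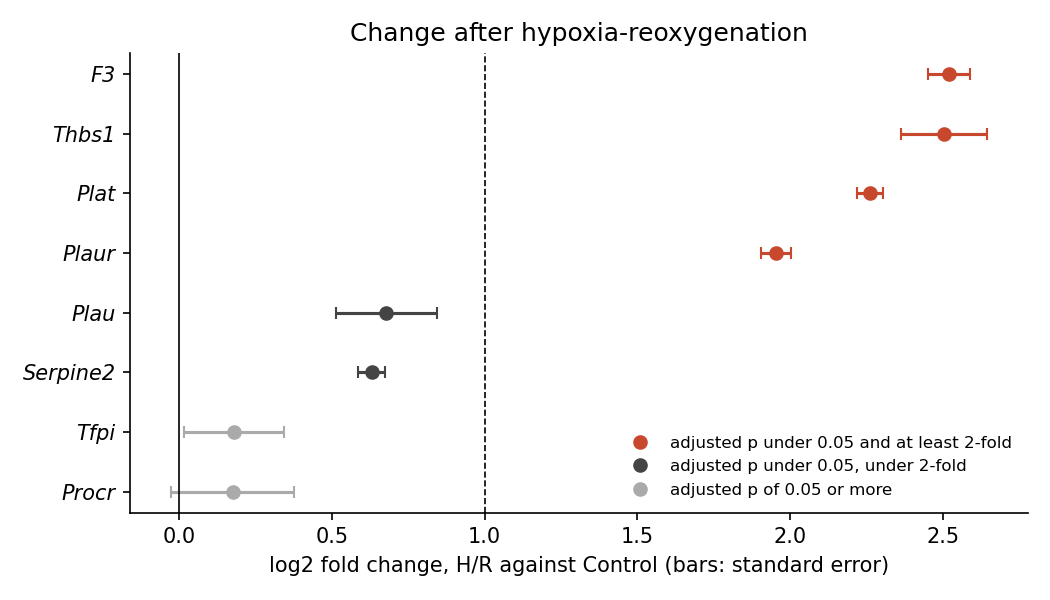
Log2 fold change of the 8 genes in H/R against Control (x axis) from edgeR, with bars of 1 standard error and 3 libraries a group. The dashed line at 1 marks a 2-fold rise: F3, Thbs1, Plat and Plaur lie beyond it, Plau and Serpine2 lie between it and 0, and Tfpi and Procr lie within 0.2 of 0.

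Plat, which encodes tissue-type plasminogen activator, lies on chromosome 8 at 22757727 to 22782844 on the plus strand (GRCm38) with 6241 bases of exon. Its level was 9.83, 10.4 and 10.2 RPKM in Control and 45.1, 45.0 and 45.6 RPKM in H/R. The groups were far apart, and within each the libraries lay close together. The log2 fold change was 2.26 with a standard error of 0.04, a 4.80-fold rise (95% interval 4.52 to 5.09), and edgeR's quasi-likelihood test gave a Benjamini-Hochberg adjusted p of 2.87e-30. Only 6 of the 14020 genes tested had a smaller p. In Control the Plat level exceeded that of 66.1% of tested genes, and in H/R that of 90.7%.

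Plau encodes urokinase, the activator that works on the cell surface receptor, and lies on chromosome 14 at 20836662 to 20843388 on the plus strand. It was a low transcript, with 70, 78 and 107 counts in Control and 92, 142 and 137 in H/R, or 1.37, 1.58 and 2.14 RPKM against 1.91, 2.96 and 2.69 RPKM. The groups overlapped, because H/R replicate 1 lay below Control replicate 3. The log2 fold change was 0.68 with a standard error of 0.17, with an adjusted p of 0.000862 by edgeR's quasi-likelihood test. A two-sided exact permutation test of the normalised counts of Plau alone gave p = 0.2, where the smallest p that 3 against 3 libraries allow is 0.1. The adjusted p rose to 0.0521 with limma on log2(RPKM + 1) and to 0.0518 on log2(RPKM + 0.1), so whether Plau passed that threshold depended on the test, and it was under 2-fold in each.

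Plaur, the receptor that holds urokinase at the cell surface, lies on chromosome 7 at 24462484 to 24475968 on the plus strand. It had the highest level of the 8 genes in both groups, at 19.5, 18.9 and 18.7 RPKM in Control and 67.4, 72.5 and 65.7 RPKM in H/R. All H/R libraries lay above all Control libraries by a wide margin, and the H/R libraries were more spread (SD 3.53) than the Control libraries (SD 0.402). The rise was 3.87-fold (95% interval 3.62 to 4.14), or 1.95 on the log2 scale with a standard error of 0.05, with an adjusted p of 5.89e-27 by edgeR's quasi-likelihood test.

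Serpine2, which encodes protease nexin 1, an inhibitor of urokinase, plasmin and thrombin, lies on chromosome 1 at 79794197 to 79861180 on the minus strand. Its level was 13.5, 12.7 and 14.0 RPKM in Control and 19.3, 18.8 and 19.6 RPKM in H/R. The groups did not overlap, and the change was smaller than those of Plat and Plaur. It rose 1.55-fold (95% interval 1.46 to 1.64), a log2 fold change of 0.63 with a standard error of 0.04 and an adjusted p of 1.13e-14 by edgeR's quasi-likelihood test, which left it under the 2-fold threshold. Dropping Control replicate 1 gave 0.64 on the log2 scale.

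F3, which encodes tissue factor, lies on chromosome 3 at 121723537 to 121735048 on the plus strand. Its counts were 205, 210 and 223 in Control and 1029, 1151 and 1145 in H/R, and its level went from 3.71, 3.95 and 4.14 RPKM to 19.8, 22.3 and 20.8 RPKM. Every H/R library held several times the level of every Control library. The log2 fold change of 2.52 with a standard error of 0.07, a 5.74-fold rise (95% interval 5.22 to 6.30), was the largest point estimate of the 8 genes, and the interval of Thbs1 overlapped it. The adjusted p by edgeR's quasi-likelihood test was 7.19e-26, and among the 596 genes called higher in H/R, F3 stood at place 60 by fold change. Its level exceeded that of 43.8% of tested genes in Control and 80.9% in H/R.

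Tfpi, the inhibitor of the complex of tissue factor and factor VII, lies on chromosome 2 at 84432855 to 84476775 on the minus strand. It held 80, 62 and 91 counts in Control and 73, 71 and 96 in H/R, which is 0.670, 0.540 and 0.781 RPKM against 0.651, 0.636 and 0.808 RPKM. The groups overlapped throughout. The fold change was 1.13 with a 95% interval of 0.907 to 1.41 and an adjusted p of 0.348 by edgeR's quasi-likelihood test and no difference was detectable at this depth.

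Procr, the endothelial protein C receptor, lies on chromosome 2 at 155751117 to 155755471 on the plus strand. It held 61, 40 and 50 counts in Control and 48, 43 and 64 in H/R, or 1.37, 0.937 and 1.16 RPKM against 1.15, 1.04 and 1.45 RPKM. These ranges overlapped as well. The fold change was 1.13 with a wider 95% interval of 0.858 to 1.48 and an adjusted p of 0.467 by edgeR's quasi-likelihood test. With Control replicate 1 dropped, Procr stood at 0.33 on the log2 scale, with an adjusted p of 0.218 by edgeR.

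Thbs1 lies on chromosome 2 at 118111876 to 118127133 on the plus strand, and 208 of its 6073 exonic bases overlap the minus-strand gene Gm29233. It was the lowest of the 8 genes in Control, with 36, 55 and 42 counts or 0.271, 0.431 and 0.324 RPKM, and reached 218, 231 and 238 counts or 1.75, 1.86 and 1.80 RPKM in H/R. All H/R libraries lay above all Control libraries, and the low Control counts left a larger error than for F3. The rise was 5.67-fold (95% interval 4.68 to 6.87), a log2 fold change of 2.50 with a standard error of 0.14 and an adjusted p of 4.25e-17 by edgeR's quasi-likelihood test. With limma on log2(RPKM + 1), a scale that shrinks changes of low genes, the estimate for Thbs1 was 1.06 with an adjusted p of 7.92e-06.

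The order of levels changed between the groups. In Control, mean levels ran from Plaur at 19.0 ± 0.402 RPKM (SD, n = 3) through Serpine2 at 13.4 ± 0.656 RPKM, Plat at 10.1 ± 0.280 RPKM, F3 at 3.94 ± 0.214 RPKM, Plau at 1.70 ± 0.400 RPKM, Procr at 1.16 ± 0.219 RPKM and Tfpi at 0.664 ± 0.121 RPKM to Thbs1 at 0.342 ± 0.0812 RPKM. Only the neighbours Plau and Procr overlapped in this order. In H/R, mean levels ran from Plaur at 68.5 ± 3.53 RPKM through Plat at 45.2 ± 0.317 RPKM, F3 at 21.0 ± 1.23 RPKM, Serpine2 at 19.3 ± 0.411 RPKM, Plau at 2.52 ± 0.546 RPKM, Thbs1 at 1.80 ± 0.0561 RPKM and Procr at 1.21 ± 0.213 RPKM to Tfpi at 0.698 ± 0.0954 RPKM. No neighbours overlapped there, and Plat, F3 and Thbs1 had each moved up past at least 1 other gene.

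**Figure D2:**
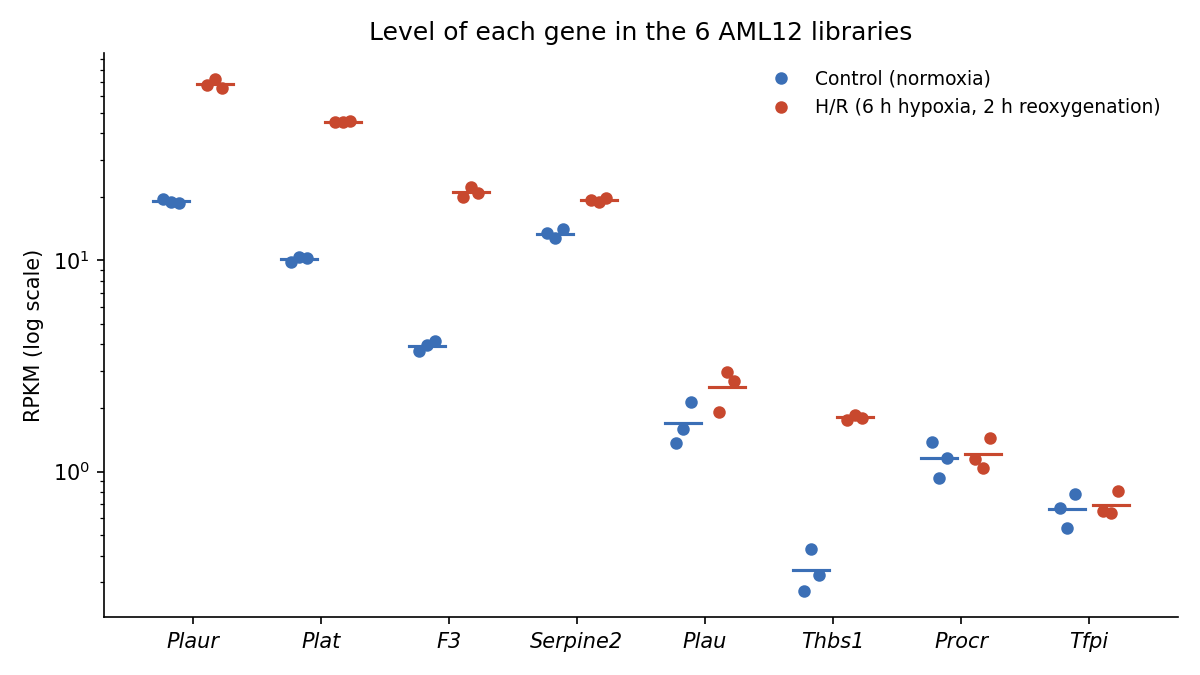
Level of the 8 genes in RPKM (y axis, log scale) in the 3 Control and 3 H/R libraries. Points are libraries and lines are group means; Plaur, Plat, F3, Serpine2 and Thbs1 have H/R points above all Control points, while Plau, Procr and Tfpi overlap.

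Ratios within a library do not depend on how libraries are scaled, so the balance between these genes was also compared that way. The ratios were chosen after the values had been seen. The ratio of Plat to Serpine2 went from 0.759 ± 0.0508 to 2.35 ± 0.0370 (SD, n = 3), so that Plat passed from below Serpine2 to above it. The groups were apart: the ratio was 0.730, 0.818 and 0.729 in the Control libraries and 2.33, 2.39 and 2.32 in the H/R libraries.

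Of the activators, Plat dominated in both groups. The ratio of Plat to Plau was 7.19, 6.56 and 4.76 in Control and 23.6, 15.2 and 16.9 in H/R. That of Plaur to Plau, receptor to ligand, was 14.2, 11.9 and 8.74 in Control and 35.2, 24.4 and 24.4 in H/R. In both, the lowest H/R library lay above the highest Control library. The ratio of F3 to Tfpi, initiator to inhibitor, was 5.54, 7.32 and 5.30 in Control and 30.5, 35.0 and 25.8 in H/R, a 5.04-fold difference. The ratio of Thbs1 to its receptor transcript Cd47 was 0.0644 ± 0.0134 in Control and 0.267 ± 0.00539 in H/R. For each of these 5 ratios the two-sided exact permutation p was 0.1, the smallest that 3 against 3 libraries allow, so none could pass 0.05.

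**Figure D3:**
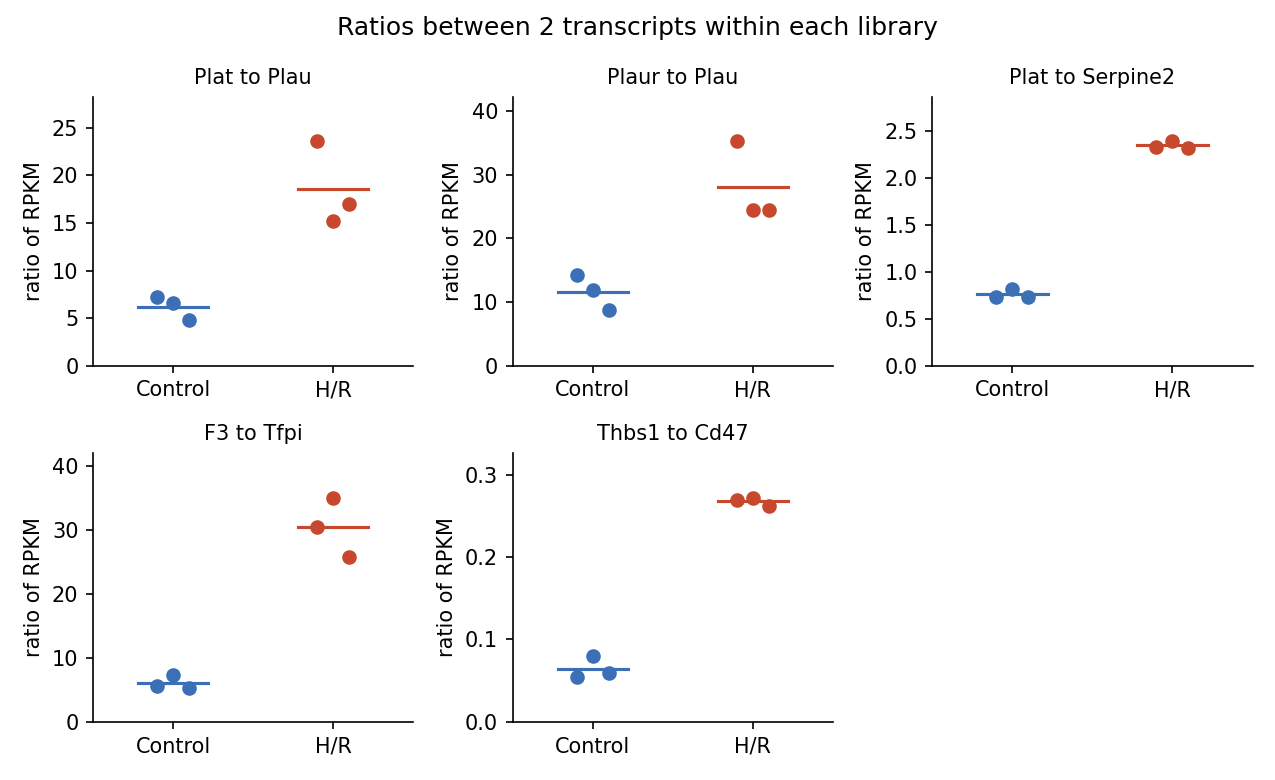
Ratio of the RPKM of the named genes (y axis, from 0) in each Control and H/R library. Points are libraries and lines are means; in all 5 panels every H/R library lies above every Control library, with Plat to Serpine2 below 1 in Control and above 2 in H/R.

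RefSeq promoter windows (GRCm38.p6), covering 250 bases before the transcript start to 50 after it, were held for 5 of the genes: F3, Plaur, Serpine2, Procr and Tfpi, the last with 2 start sites. The windows of the called genes F3 and Plaur are shown with those of Procr and of the upstream Tfpi start, which showed no detectable change, so that the letters can be compared. Capitals mark the AP-1 motif TGANTCA (N is any base), the EGR motifs GCGGGGGCG and GCGTGGGNG, and the hypoxia response element cores ACGTG and GCGTG, each searched on both strands. The F3 window is chr3:121723287-121723586 on the plus strand, the Plaur window chr7:24462233-24462532 on the plus strand, the Procr window chr2:155750967-155751266 on the plus strand and the Tfpi window chr2:84476710-84477009 on the minus strand.
F3: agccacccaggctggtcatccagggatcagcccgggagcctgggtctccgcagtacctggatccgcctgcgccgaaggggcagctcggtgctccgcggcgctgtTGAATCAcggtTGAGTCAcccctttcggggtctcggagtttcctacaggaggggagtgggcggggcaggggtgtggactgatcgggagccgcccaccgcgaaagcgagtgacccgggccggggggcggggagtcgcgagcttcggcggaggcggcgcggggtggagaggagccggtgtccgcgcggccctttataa
Plaur: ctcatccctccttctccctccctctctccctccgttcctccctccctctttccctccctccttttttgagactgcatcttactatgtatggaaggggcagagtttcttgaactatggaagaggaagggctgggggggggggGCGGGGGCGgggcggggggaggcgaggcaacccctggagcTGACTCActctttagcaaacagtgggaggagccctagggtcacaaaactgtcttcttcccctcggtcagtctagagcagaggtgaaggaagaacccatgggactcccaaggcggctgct
Procr: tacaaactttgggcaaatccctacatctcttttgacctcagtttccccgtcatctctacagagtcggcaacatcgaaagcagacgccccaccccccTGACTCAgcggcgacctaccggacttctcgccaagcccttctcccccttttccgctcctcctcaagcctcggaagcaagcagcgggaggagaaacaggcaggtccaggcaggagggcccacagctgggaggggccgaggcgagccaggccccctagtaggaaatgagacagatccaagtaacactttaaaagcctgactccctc
Tfpi: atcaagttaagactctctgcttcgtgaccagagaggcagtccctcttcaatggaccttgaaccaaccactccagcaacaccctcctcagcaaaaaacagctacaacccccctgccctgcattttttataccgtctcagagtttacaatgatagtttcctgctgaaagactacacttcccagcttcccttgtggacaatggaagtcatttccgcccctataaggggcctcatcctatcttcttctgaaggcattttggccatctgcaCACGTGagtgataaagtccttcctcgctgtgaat

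With the transcript start at position 0, the F3 window held AP-1 matches at -146 to -140 and at -135 to -129. Plaur held an AP-1 match at -69 to -63 and an EGR match at -109 to -101, which shared bases with GC boxes (GGGCGG) on both sides. Procr, which was not called, held an AP-1 match at -154 to -148. AP-1 was thus present in 3 of the 6 windows, those of F3, Plaur and Procr, and in 7.81% of 32851 mouse promoter windows of the same length. No window was held for Plat, Plau or Thbs1, so no enrichment among the pathway genes can be read from this. Serpine2 held an EGR match at -17 to -9 and 6 GC boxes in a window of 77.7% G and C, where the median of all windows was 52.7%. The EGR letters GCGGGGGCG occurred in 2.91% of all windows and GCGTGGGNG in 1.90%. The hypoxia core ACGTG, in 19.6% of all windows, was found only at the upstream Tfpi start, where matches on both strands overlapped at 16 to 20 and 17 to 21. GCGTG, in 32.4% of all windows, was in none of the 6 windows. CACCC, the letters bound by Kruppel-like factors and held by 57.5% of all windows, occurred 4 times in F3, where a match at -130 to -126 shared bases with AP-1, once in Procr and once at each Tfpi start, and not in Plaur or Serpine2. The GC box was in 35.7% of all windows and TATAAA in 13.6%. TATAAA was found only on the opposite strand, at 43 to 48 in F3 and at -127 to -122 at the upstream Tfpi start. The shorter form TGACG, in 20.8% of windows, was in that of Procr, and its palindrome TGACGTCA, in 1.79%, was in none of the 6. These matches describe letters and were not tested for binding.

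**Figure D4:**
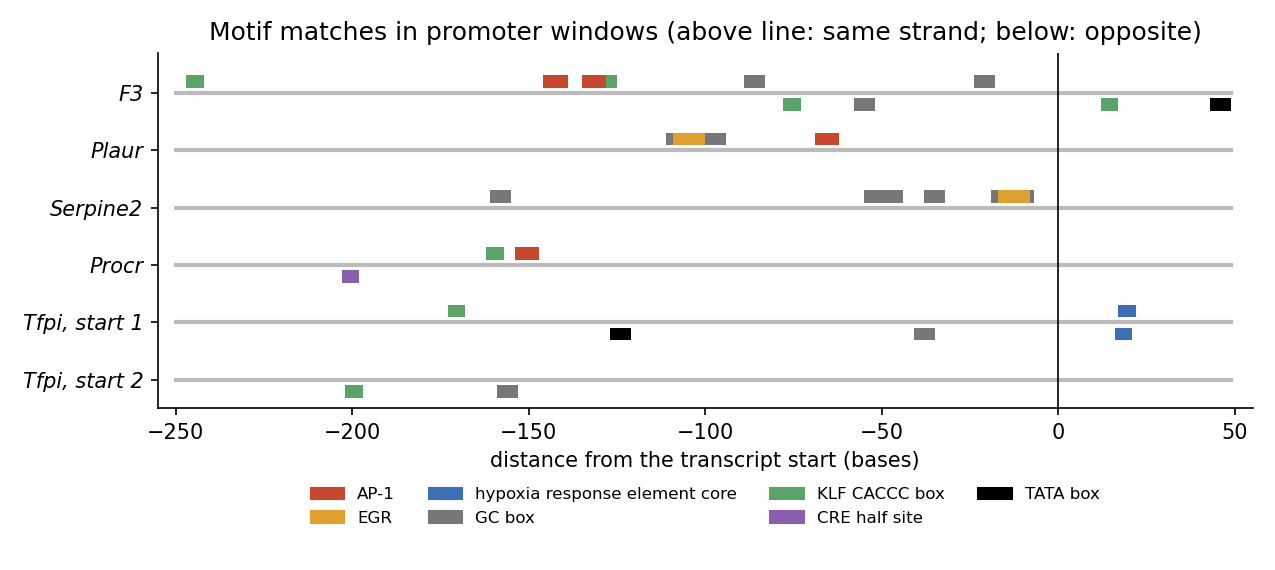
Motif matches in the 6 promoter windows, by distance from the transcript start in bases (x axis), with matches on the gene's strand above each line and on the opposite strand below. AP-1 matches lie upstream of F3, Plaur and Procr, EGR matches lie in Plaur and Serpine2, and the hypoxia core lies downstream of the upstream Tfpi start.

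The other genes of these pathways were read from lists of further members. Of 24 further plasminogen system genes with a row, 10 were tested and none was called, while 6 passed the adjusted p as higher and 1 as lower, with a median log2 fold change of 0.33. That is 7 of 10 passing, near the 62.8% of all genes tested. Anxa2 and S100a10, whose proteins form a complex that binds plasminogen and Plat at the cell surface, had the highest mean level of the list over all 6 libraries. Anxa2 rose from 181 ± 6.74 to 255 ± 3.33 RPKM (SD, n = 3), a log2 fold change of 0.60 with a standard error of 0.04 and an adjusted p of 5.51e-14 by edgeR's quasi-likelihood test. S100a10 was at 275 ± 20.6 RPKM in Control and 270.5 ± 16.3 RPKM in H/R, with overlapping groups and an adjusted p of 0.136 by the same edgeR test. Plasminogen itself (Plg) held 16 counts in Control replicate 1 and 0 in the other 5 libraries.

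Of 27 further coagulation genes with a row, 12 were tested, 4 were called lower and none higher, and by the adjusted p 7 were lower and 1 higher, with a median log2 fold change of -0.23. Of all genes tested, 4.27% were called lower and 31.8% passed the adjusted p as lower, and the 8 of 12 passing in either direction is near the 62.8% of all genes. Proc, the precursor of activated protein C that Procr binds, held 187, 168 and 186 counts in Control and 76, 57 and 78 in H/R. Its level went from 5.38 ± 0.246 to 2.14 ± 0.318 RPKM, a log2 fold change of -1.22 with a standard error of 0.13 and an adjusted p of 8.2e-10 by edgeR's quasi-likelihood test. The Proc groups did not overlap, while those of its receptor Procr did. Tpst1, an enzyme that adds sulfate to tyrosines, held 120, 113 and 128 counts in Control and 28, 31 and 31 in H/R, with a log2 fold change of -1.86 and an adjusted p of 1.72e-11 by the edgeR test.

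The other 2 called coagulation genes were close to the limit of detection. F11, coagulation factor XI, held 27, 25 and 22 counts in Control and 13, 0 and 7 in H/R, and its log2 fold change of -1.73 ranged from -2.66 without H/R replicate 1 to -1.17 without H/R replicate 2. F8, coagulation factor VIII, held 28, 16 and 14 counts in Control and 4, 9 and 9 in H/R, and its log2 fold change was -1.25. Its adjusted p of 0.00708 by edgeR's quasi-likelihood test became 0.094 without Control replicate 1 and 0.0532 without H/R replicate 1, so the call on F8 rested on single libraries. Lman1 and Mcfd2, which carry factors V and VIII out of the endoplasmic reticulum, were not called, with log2 fold changes of -0.15 and -0.01. Lman1 passed the adjusted p as lower (0.00219 by the edgeR test) and Mcfd2 did not (0.905).

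The remaining lists were short. Of 6 further thrombospondin family genes and receptors with a row, 2 were tested: Cd47, a receptor of Thbs1, rose from 5.29 ± 0.301 to 6.75 ± 0.209 RPKM, with a log2 fold change of 0.46 and an adjusted p of 5.31e-08 by the edgeR test, and Thbs3 had a log2 fold change of -0.25 with an adjusted p of 0.463. The median of these 2 was 0.10 and turned to -0.000967 when libraries were scaled by their totals alone. All 3 tested of 5 genes of growth factor activation (hepatocyte growth factor, its relatives, activators and receptor) passed the adjusted p as higher and none was called. Of all genes tested, 31% passed as higher and 8.52% were called, and 3 genes are too few to compare with these shares. Met, the receptor of hepatocyte growth factor, had a log2 fold change of 0.21, and Hgfac, a protease that activates that factor, one of 0.60. Over all 4 lists 27 genes were tested, with 4 called lower and none called higher, where 4.27% of all genes tested were called lower. The median log2 fold change of the 27 was 0.02 (-0.08 under scaling by totals), against 1.32 for the 8 pathway genes. The 8 genes and the lists were chosen with earlier results of these data known, so this difference is a description only.

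**Figure D5:**
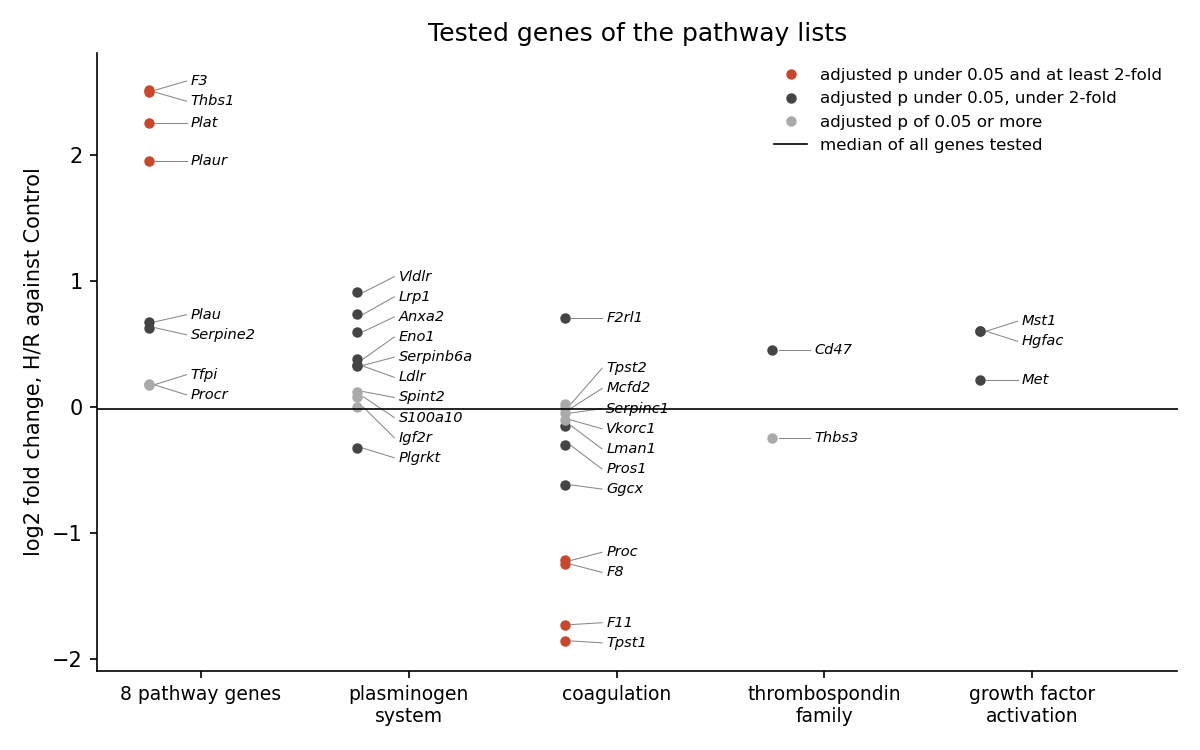
Log2 fold change in H/R against Control (y axis) of every tested gene, by list, with the median of all genes tested as a line. Red points passed both the adjusted p and the 2-fold threshold, dark points the adjusted p alone and grey points neither; 4 of the 8 pathway genes lie above 1.9, while the 4 red points of the coagulation list lie below -1.2.

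Among 10178 genes with a mean of at least 100 counts, those whose log2 CPM (prior count 2) correlated best with that of F3, the called gene with the largest rise, were Nedd4l (Pearson r = 0.99966), Dusp6 (r = 0.99965) and Zbtb10 (r = 0.99963) over the 6 libraries. Nedd4l is a ubiquitin ligase and Dusp6 a phosphatase of the MAP kinase ERK. All 6 points share the split into Control and H/R, and 777 genes had r above 0.99, so the order among them is a description of a difference between groups. Dusp6 had a log2 fold change of 3.12, Nedd4l of 1.44 and Zbtb10 of 1.55.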

How the data were processed

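A total of 6 libraries of AML12 total RNA were analysed, 3 Control and 3 H/R, grouped by GEO's labels. Per the labels, libraries were made with a stranded mRNA kit, and the study gives paired-end reads and mapping to GRCm38. The submitters' processing notes name Trimmomatic 0.36, featureCounts of Subread 1.5.1 and edgeR 3.12.1. Whether counting used strand is not given in the sources used here. The deposited tables hold, per gene, the authors' raw read counts and RPKM values. The RPKM were recomputed from counts, exonic length and library totals with a largest relative error of 1.13e-06. Genes were filtered with edgeR's filterByExpr, scaled by TMM and tested with the robust quasi-likelihood test in edgeR 4.0.16 (R 4.3.3), with Benjamini-Hochberg adjustment over 14020 genes. The common biological coefficient of variation was 0.0502. Calls needed an adjusted p under 0.05 and a 2-fold change, the thresholds of the study. Intervals (95%) are normal approximations from the standard error. Alternatives used DESeq2 1.42.0, limma 3.58.1 on log2(RPKM + 1) and log2(RPKM + 0.1), other scalings, filters and thresholds, and leaving out each library. Exact permutation tests used scipy 1.17.1. Counts of 3 or fewer were treated as the floor. Exons of 7571 genes overlapped another gene.

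The members and lists were chosen with earlier results of these data known. The text names all members, up to 4 called genes per list with the largest change, up to 2 tested genes per list that were not called and had the highest RPKM, and the 3 genes most like the called member with the largest rise. Genes named outside this rule are given as counts, and for Vtn, Kng1, Plg and F5 also as calls with no filter. A gene of the plasminogen system list is not reported here and was left out of that list. Nothing states that replicates were separate cultures. The p-values therefore set the group difference against the spread between these libraries, which may be technical. Same-numbered Control and H/R libraries were not treated as pairs in the main test. The correlations of their deviations were -0.0269, 0.0048 and -0.0141, which cannot settle whether they were handled together.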

Additional observations from a re-analysis of the deposited data

How the results depend on the processing

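Scaling moved all genes together: the median log2 fold change over all genes was -0.01 with TMM, -0.08 after scaling by upper quartiles and -0.12 after scaling by totals only, and calls split into 596 higher and 599 lower, 516 and 734, and 476 and 810. The 8 pathway genes kept their direction under every alternative run. Genes called numbered 1195, and 406 (222 higher, 184 lower) with limma on log2(RPKM + 1), 772 (369 and 403) without genes with overlapping exons, 3420 with a 1.5-fold threshold, 8806 by adjusted p alone and 474 by a test against 2-fold. Without overlapping genes fewer genes were tested, Thbs1 among those dropped, so 3 of the 8 pathway genes were called; 6 were called at 1.5-fold or by adjusted p alone and 4 under every other alternative. The 4 calls in the pathway lists became 8 with no filter on low counts, 2 with at least 10 counts in every library, 1 with limma on log2(RPKM + 1), 11 (6 higher, 5 lower) at 1.5-fold, 19 (11 higher, 8 lower) by adjusted p alone and 1 by the test against 2-fold; the cause was not tested. Plau fell to a log2 fold change of 0.38 (adjusted p 0.0521) and 0.55 (0.0518) with limma on log2(RPKM + 1) and log2(RPKM + 0.1), while 14 alternatives kept its adjusted p under 0.05. With TMM-scaled library sizes, mean RPKM was 19.98 for Serpine2 in H/R, 9.78 and 46.9 for Plat in Control and H/R, 18.4 for Plaur in Control and 1.87 for Thbs1 in H/R.

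Leaving out each library in turn gave 1211 to 1291 genes called, 4 pathway genes each time, and 3 to 5 genes of the lists. Log2 fold changes ranged from 2.47 to 2.56 for F3, 2.37 to 2.70 for Thbs1, 2.25 to 2.28 for Plat, 1.91 to 1.99 for Plaur, 0.54 to 0.87 for Plau, 0.60 to 0.65 for Serpine2, 0.05 to 0.30 for Tfpi and 0.03 to 0.33 for Procr. With a replicate block, 1200 genes and 4 pathway genes were called, and no call on a pathway gene changed. Correlations of deviations between Control and H/R libraries ran from -0.05 to 0.0604. With 3 libraries a group, such values cannot settle whether same-numbered libraries shared a batch. Low counts limit the precision for Tfpi, Procr, Plau and Control Thbs1.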

Other observations

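Several liver-secreted transcripts of the coagulation and plasminogen lists were found in Control replicate 1 and hardly elsewhere. The fibrinogen chains Fga, Fgb and Fgg held 61, 52 and 34 counts in Control replicate 1, and at most 1 count in any of the other 5 libraries. Kng1, which encodes kininogen, held 17 counts there and 0 elsewhere, and Plg held 16 and 0. F5, coagulation factor V, held 19 counts there and at most 2 elsewhere, Vtn, which encodes vitronectin, held 9 and 0, and Serping1, the C1 inhibitor, held 11 there and at most 3 elsewhere. Albumin was also highest in that library, with 542 counts against 132 and 209 in the other Control libraries. These genes did not pass the filter on low counts, apart from albumin, and with no filter Vtn, Kng1, Plg and F5 were among the 8 list genes called lower in H/R. These genes were chosen after their values were seen, and the part of these transcripts in other results was not tested.

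Among markers of other cells, Cd68, a lysosomal protein abundant in macrophages, held 16, 22 and 22 counts in Control and 123, 113 and 137 in H/R, while Cd14 held 849, 735 and 754 in Control and 371, 436 and 424 in H/R. Among hepatocyte markers, Hnf4a, a master transcription factor of the hepatocyte, held 2973, 2973 and 3209 counts in Control and 2043, 2035 and 2166 in H/R, and Ttr, the carrier transthyretin, held 344, 181 and 423 in Control and 35, 16 and 51 in H/R. These 4 genes were named after their values were seen.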
